A study of Mus musculus with 6 samples.

Results

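Steroid hormones reach the liver from the adrenal glands and gonads, and the liver is the main site where they are reduced, oxidised and readied for excretion. Messenger RNA of 10 genes of this pathway was measured in livers of mice fed a high-fat high-calorie regimen (HFHC) or chow. The genes were taken by their symbols from a table of 20107 genes, and all 10 passed the filter on low counts that left 14896 genes for testing. They are Hsd17b2, Hsd17b6, Hsd17b11 and Hsd17b13 of the HSD17B dehydrogenases, Hsd11b1, the HSD3B genes Hsd3b3 and Hsd3b5, the steroid reductases Srd5a1 and Srd5a2, and the cytochrome P450 gene Cyp17a1.

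Livers came from 6 male wild type C57BL/6N littermates aged 16 weeks, 3 per diet. The HFHC mice ate a high-fat, high-calorie food with fructose and drank a high-fructose solution for 8 weeks, starting at 8 weeks of age, and the Chow mice ate chow over the same time. Depth was 30096409 to 30871297 counts in the 3 HFHC libraries, numbered 1, 2 and 3, against 26767416 to 27339613 in the 3 Chow libraries, numbered 7, 8 and 9. Levels are given as CPM, counts scaled to the size of the library, with mean ± SD over n = 3 per diet. Log2 fold changes are HFHC over Chow, with the standard error (SE) and the 95% confidence interval (interval) of the edgeR quasi-likelihood fit over all tested genes. A gene is said to have risen or fallen where its Benjamini-Hochberg adjusted p over all tested genes was under 0.05. Of 10 hepatocyte markers, 0 rose and 1 fell with edgeR (2 higher and 2 lower at an unadjusted p under 0.05; 0 higher and 2 lower with DESeq2). Alb, for albumin, stood at 57680 to 59800 CPM in HFHC libraries against 49332 to 65992 CPM in Chow libraries, and the marker that fell was Cps1, of the urea cycle (log2 fold change -0.75 ± 0.12 SE, edgeR adjusted p = 0.00837). Over all tested genes, 3.38% rose and 3.3% fell with edgeR. In whole liver, fewer cells of a type and less RNA per cell cannot be told apart. On the leading principal components of all tested genes, the first (46.6% of variance) separated the diets and the second (16.6%) set the Chow 8 library, at -30.4, apart from the other two Chow libraries, at 11.2 and 11.9.

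Hydroxysteroid dehydrogenases (HSD) interconvert a hydroxyl and a keto group at a fixed carbon of the steroid, which switches a hormone between an active and a weak form. Steroid reductases remove the double bond in the first ring of testosterone and corticosterone. In mice, several of these genes differ between the livers of males and females under the control of the pulse pattern of growth hormone.

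Of the 10 genes, 1 rose and 2 fell under HFHC feeding. Cyp17a1 was 5.21-fold higher, Hsd17b6 was 5.85-fold lower and Srd5a1 was 1.27-fold lower. Over all tested genes, 6.67% were called in either direction, 3.38% as higher and 3.3% as lower. The HFHC and Chow libraries did not overlap in 4 of the 10 genes, the 3 named and Hsd17b13, where 27.8% of all tested genes had no overlap. The log2 fold change was negative for 7 genes and positive for 3, with a median of -0.17 against -0.0033 over all tested genes. It was under 0.5 in size for 8 of the 10. Among the HFHC libraries, HFHC 2 held the lowest value in 6 genes and the highest in 3.

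**Figure D1:**
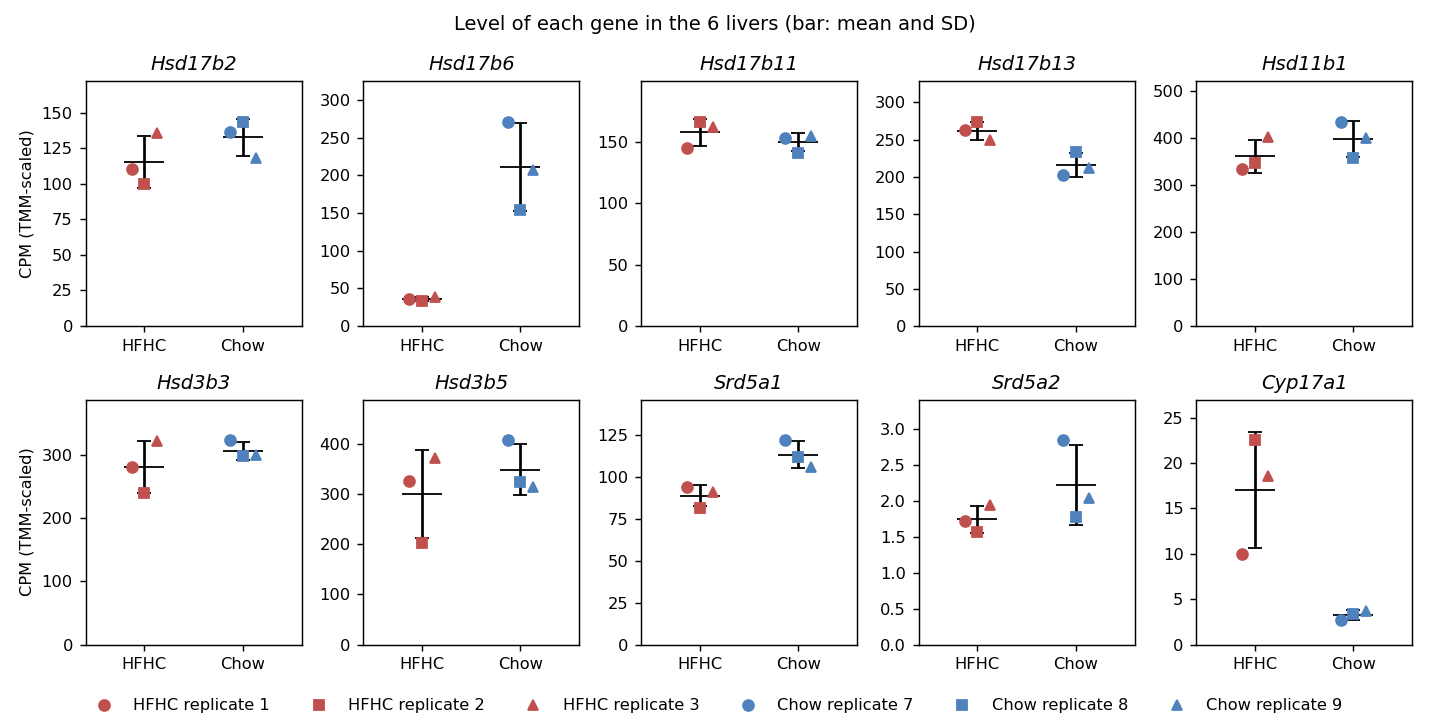
CPM of each of the 10 genes in every library, 1 panel per gene with its own axis starting at 0, HFHC left of Chow, with 1 point per library, the mean as a horizontal line and the SD as an error bar (n = 3 each). The HFHC libraries lie below the Chow libraries for Hsd17b6 and Srd5a1 and above them for Cyp17a1 and Hsd17b13, and the diets overlap in the other 6 genes.

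Hsd17b6 lies on the minus strand of chromosome 10 (mm10, chr10:127990936-128007611). It encodes a short-chain dehydrogenase related to the retinol dehydrogenases, which in rat and human oxidises androgen metabolites such as androstanediol back to active androgens. Its level was 35.7, 33.6 and 38.8 CPM in HFHC 1, 2 and 3, against 271, 154 and 207 CPM in Chow 7, 8 and 9. The highest HFHC library was far below the lowest Chow library, and the relative spread was smaller in HFHC, at 7.27% of the mean, than in Chow, at 27.7%. The means were 36.0 ± 2.62 CPM in HFHC livers against 211 ± 58.4 CPM in Chow livers. The log2 fold change was -2.55 ± 0.18 (SE), with an interval of -2.96 to -2.14, and an edgeR adjusted p of 0.000147, rank 12 by p among all tested genes. It was called in all 16 alternative fits, and leaving out each library in turn gave log2 fold changes of -2.72 to -2.33. Its transcript was 74.6% identical to Rdh1 over 886 bases, 78.3% to Rdh7 over 636 and 81.3% to Rdh16f1 over 567, and its counts were whole in 1 of 6 libraries, so its level is uncertain by an amount not measured here.

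The start region of Hsd17b6 is shown because this gene had the largest change of the 10, beside that of Srd5a1, the other gene that fell. Both are the 250 bases before a RefSeq start site (build GRCm38.p6, minus strand, 5′ to 3′), Hsd17b6 at chr10:128007612-128007861 and Srd5a1 at chr13:69611464-69611713. Capitals mark CCAAT on either strand, so that ATTGG is the same motif on the other strand.
Hsd17b6: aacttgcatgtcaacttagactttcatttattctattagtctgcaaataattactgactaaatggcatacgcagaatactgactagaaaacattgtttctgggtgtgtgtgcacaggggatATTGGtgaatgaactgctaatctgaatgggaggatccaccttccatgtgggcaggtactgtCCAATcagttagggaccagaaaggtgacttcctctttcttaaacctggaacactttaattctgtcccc
Srd5a1: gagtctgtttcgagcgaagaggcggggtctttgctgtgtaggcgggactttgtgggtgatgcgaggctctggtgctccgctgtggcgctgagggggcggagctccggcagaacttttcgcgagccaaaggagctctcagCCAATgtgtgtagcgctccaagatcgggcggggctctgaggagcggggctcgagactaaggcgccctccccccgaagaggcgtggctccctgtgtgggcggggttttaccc
The Hsd17b6 window held the motif 2 times, with its first base 129 and 68 bases before the start, and the Srd5a1 window held it 1 time, 111 bases before the start. It occurred in 33.85% of the 32851 RefSeq windows of the same length, and in windows of 5 of the 8 genes matched, which include Hsd17b11, Hsd11b1 and Hsd3b3, genes that were not called. The percentage is per window and the count is per gene, and Hsd17b6 and Hsd3b3 had 2 windows each. The second Hsd17b6 window, which overlaps the one shown, held the motif 3 times, 232, 171 and 17 bases before its own start. The windows shown differed in composition, with 41.2% GC and 1 CpG in Hsd17b6 against 64.8% GC and 20 CpG in Srd5a1. The medians of all windows were 52.4% and 6. RefSeq windows were matched by symbol for 8 of the 10 genes. None of these held the STAT5 motif TTCNNNGAA (7.02% of all windows), the glucocorticoid receptor half-site AGAACA (16.08%) or the HNF1 half-site GTTAAT (6.432%), searched on both strands. The nuclear receptor half-site AGGTCA (14.02% of all windows) was found in 1 of the 8, Hsd17b13, with its first base 96 bases before the start. A match or its lack is a description of these letters alone.

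The other three HSD17B genes did not pass the test. Hsd17b2 (mm10, chr8:117701904-117759027) oxidises testosterone and estradiol to weaker keto steroids. It stood at 111, 99.6 and 136 CPM in the HFHC libraries and at 136, 144 and 118 CPM in the Chow libraries, which overlapped. Its log2 fold change was -0.20 ± 0.12 (SE), with an interval of -0.48 to 0.07 and an edgeR adjusted p of 0.378.

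Hsd17b11 and Hsd17b13 are neighbours on the minus strand of chromosome 5 (mm10, chr5:103989762-104021919 and chr5:103955440-103977410), with 12351 bases between them. Both encode proteins of the lipid droplet surface, and Hsd17b13 is made mainly in hepatocytes. Hsd17b13 stood at 262, 274 and 250 CPM in HFHC livers and at 202, 233 and 212 CPM in Chow. Every HFHC library was above every Chow library, by means of 262 ± 12.2 CPM in HFHC livers against 216 ± 15.8 CPM in Chow livers. Its log2 fold change of 0.28 ± 0.08 (SE; interval 0.09 to 0.47) had an edgeR adjusted p of 0.0816, which missed the threshold. It passed with DESeq2 (log2 fold change 0.29, adjusted p = 0.0457) and with limma-voom and sample weights (0.31, adjusted p = 0.0292).

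Hsd17b11 stood at 145, 166 and 162 CPM in HFHC livers and at 153, 141 and 155 CPM in Chow. The diets overlapped, and its log2 fold change was 0.08 ± 0.08 (SE; interval -0.11 to 0.26; edgeR adjusted p = 0.653). The log2 ratio of Hsd17b13 over Hsd17b11 within a library averaged 0.73 ± 0.12 in HFHC and 0.52 ± 0.17 in Chow. The difference of 0.21 had p = 0.3 in a two-sided exact permutation test with its 20 ways of assigning libraries to a diet, where 0.1 is the smallest p possible, and 0.9 after adjustment over 3 such ratios. Summed over the 4 HSD17B genes, the level was 571 ± 16.2 CPM in HFHC livers against 709 ± 47.6 CPM in Chow livers. Without Hsd17b6 the sum ran the other way, at 535 ± 15.1 CPM in HFHC livers against 498 ± 17.2 CPM in Chow livers.

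Hsd11b1 (mm10, chr1:193221634-193264075, minus strand) encodes the reductase that regenerates active glucocorticoid inside hepatocytes, with NADPH that H6pd supplies in the endoplasmic reticulum. Its level was 335, 348 and 402 CPM in HFHC livers and 435, 358 and 399 CPM in Chow, which overlapped. The log2 fold change was -0.14 ± 0.10 (SE; interval -0.37 to 0.09; edgeR adjusted p = 0.489). H6pd itself stood at 377 ± 63.3 CPM in HFHC livers against 422 ± 13.5 CPM in Chow livers, with an edgeR adjusted p of 0.472.

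Both HSD3B genes lie in a cluster on chromosome 3, Hsd3b3 at chr3:98741523-98763127 and Hsd3b5 at chr3:98618634-98630252 (mm10, minus strand). The HSD3B family converts the first steroids made from cholesterol into their keto forms, and mouse Hsd3b5 is a male-biased liver member that works as a keto-steroid reductase. Hsd3b3 stood at 281, 239 and 322 CPM in HFHC livers and at 323, 298 and 299 CPM in Chow. Its log2 fold change was -0.13 ± 0.11 (SE; interval -0.37 to 0.12; edgeR adjusted p = 0.551). Removing the trends that GC content and the length of all exons left in each library, a setting chosen after seeing the data, turned it to 0.033.

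Hsd3b5 stood at 327, 203 and 374 CPM in HFHC livers and at 408, 325 and 315 CPM in Chow. HFHC 2 was the lowest of all 6 libraries, and HFHC 1 and 3 lay within the range of Chow. Its log2 fold change was -0.21 ± 0.20 (SE; interval -0.66 to 0.23; edgeR adjusted p = 0.584), and without HFHC 2 it was 0.0073. The log2 ratio of Hsd3b5 over Hsd3b3 averaged 0.07 ± 0.26 in HFHC and 0.18 ± 0.14 in Chow, a difference of -0.11 (exact permutation p = 0.7, adjusted p = 0.9).

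Reads of HSD3B genes are hard to assign, because the copies are alike. Over 1491 bases, the longest protein-coding Hsd3b3 transcript was 93.8% identical to Hsd3b6 and 93.2% to Hsd3b2 in BLAST, and the Hsd3b5 transcript was 92.7% identical to Hsd3b4 over its full length. The deposited counts of Hsd3b3 were not whole in any library, as happens where reads are divided between genes or transcripts, and the levels of both genes are uncertain. The sum over all 6 HSD3B symbols of the table was 1357 ± 193 CPM in HFHC livers against 1440 ± 133 CPM in Chow livers, a log2 difference of -0.09 (exact permutation p = 0.7), and without HFHC 2 the difference was 0.025. Hsd3b7, which lies outside the cluster, made up 711 ± 58.3 CPM of it in HFHC livers against 695 ± 65.0 CPM in Chow livers. The 5 symbols of the chromosome 3 cluster summed to 645 ± 135 CPM in HFHC livers against 745 ± 73.9 CPM in Chow livers, a log2 difference of -0.22 (exact permutation p = 0.4). Hsd3b6, Gm10681 and Gm4450, close copies, are not part of these sums, so reads divided with them are not counted.

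The windows before the start sites of Hsd3b3 and Hsd3b5 are shown because the ratio of these alike copies was lowest in HFHC 2. They are RefSeq sequences of 250 bases (GRCm38.p6, minus strand, 5′ to 3′), Hsd3b3 at chr3:98763129-98763378 and Hsd3b5 at chr3:98645535-98645784. Capitals mark their longest shared run, of 24 bases.
Hsd3b3: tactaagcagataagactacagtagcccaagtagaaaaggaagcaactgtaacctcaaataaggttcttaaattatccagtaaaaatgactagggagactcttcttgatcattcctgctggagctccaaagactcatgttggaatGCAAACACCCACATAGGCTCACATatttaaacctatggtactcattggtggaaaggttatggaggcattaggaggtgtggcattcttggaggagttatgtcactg
Hsd3b5: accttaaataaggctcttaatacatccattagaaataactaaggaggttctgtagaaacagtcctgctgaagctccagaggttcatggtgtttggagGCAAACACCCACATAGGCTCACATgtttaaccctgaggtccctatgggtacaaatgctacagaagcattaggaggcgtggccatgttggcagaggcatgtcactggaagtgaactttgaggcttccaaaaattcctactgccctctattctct
The run begins 105 bases before the start of Hsd3b3 and 153 bases before that of Hsd3b5. It occurred in 3 of the 32851 windows, those of the 2 start sites of Hsd3b3 and that of Hsd3b5. In the best local alignment 151 of 202 columns were identical. The RefSeq start of Hsd3b5 lies upstream of the GENCODE span given above, so this window is not next to that span.

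Srd5a1 and Srd5a2 encode the 2 classical steroid 5-alpha reductases, which reduce testosterone to dihydrotestosterone and start the clearance of corticosterone. Srd5a1 (mm10, chr13:69573449-69611442, minus strand) stood at 93.7, 81.5 and 91.2 CPM in HFHC livers and at 122, 112 and 106 CPM in Chow. All HFHC libraries were below all Chow libraries, with means of 88.8 ± 6.45 CPM in HFHC livers against 113 ± 7.98 CPM in Chow livers. The log2 fold change was -0.35 ± 0.09 (SE; interval -0.55 to -0.15), and the edgeR adjusted p of 0.0470 was close to the threshold. The call was lost on leaving out any 1 of the 6 libraries (adjusted p 0.0699 to 0.180), with upper-quartile factors (0.0688), with library totals (0.0660) and without the count filter (0.0611). Srd5a1 shares 16.4% of its exonic bases with Gm17108 on the same strand, so part of its count is uncertain.

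Srd5a2 (mm10, chr17:74016955-74047916, minus strand), the isozyme better known from the prostate, had the lowest level per length of the 10 under HFHC. It stood at 1.72, 1.57 and 1.95 CPM in HFHC livers and at 2.85, 1.78 and 2.04 CPM in Chow, from 161 counts in all HFHC libraries and 178 in all Chow libraries, and it shares 8.97% of its exonic bases with CT025731.1 on the same strand. The diets overlapped, and the log2 fold change of -0.35 ± 0.22 (SE; interval -0.84 to 0.15; edgeR adjusted p = 0.402) equals that of Srd5a1 to 2 decimals, with a wider interval. The log2 ratio of Srd5a2 over Srd5a1 was -5.67 ± 0.11 in HFHC and -5.70 ± 0.28 in Chow (difference 0.02, exact permutation p = 0.9). The summed level of both reductases was 90.5 ± 6.58 CPM in HFHC livers against 115 ± 8.45 CPM in Chow livers.

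Cyp17a1 (mm10, chr19:46667165-46673172, minus strand) encodes the P450 enzyme that hydroxylates pregnenolone and progesterone and cleaves them to androgen precursors in gonads. It stood at 9.99, 22.5 and 18.6 CPM in HFHC 1, 2 and 3, against 2.69, 3.41 and 3.70 CPM in Chow 7, 8 and 9. The lowest HFHC library, HFHC 1, was above every Chow library, and the spread among HFHC mice was 37.6% of their mean, the widest of the 10 genes. The means were 17.04 ± 6.41 CPM in HFHC livers against 3.27 ± 0.516 CPM in Chow livers, from 1572 counts in HFHC and 263 in Chow. The log2 fold change was 2.38 ± 0.28 (SE; interval 1.75 to 3.01) with an edgeR adjusted p of 0.00195, rank 78 by p. It was called in all 16 alternative fits, and leaving out each library in turn gave log2 fold changes of 2.13, without HFHC 2, to 2.66, without HFHC 1.

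No other gene of gonadal and adrenal steroid synthesis was called. Of 9 genes on that list, 4 were in the table and tested, and edgeR called 0 (0 higher and 1 lower at an unadjusted p under 0.05; DESeq2 and limma-voom also called 0). The smallest p was that of Star, which carries cholesterol into mitochondria, at 0.700 ± 0.258 CPM in HFHC livers against 1.204 ± 0.127 CPM in Chow livers (log2 fold change -0.78 ± 0.29 SE, edgeR adjusted p = 0.154). Of 6 adrenal cortex markers, 2 were in the table, Star and Cyp21a1, and their summed level was 1.145 to 1.41 CPM in HFHC libraries against 1.18 to 2.97 CPM in Chow libraries.

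**Figure D2:**
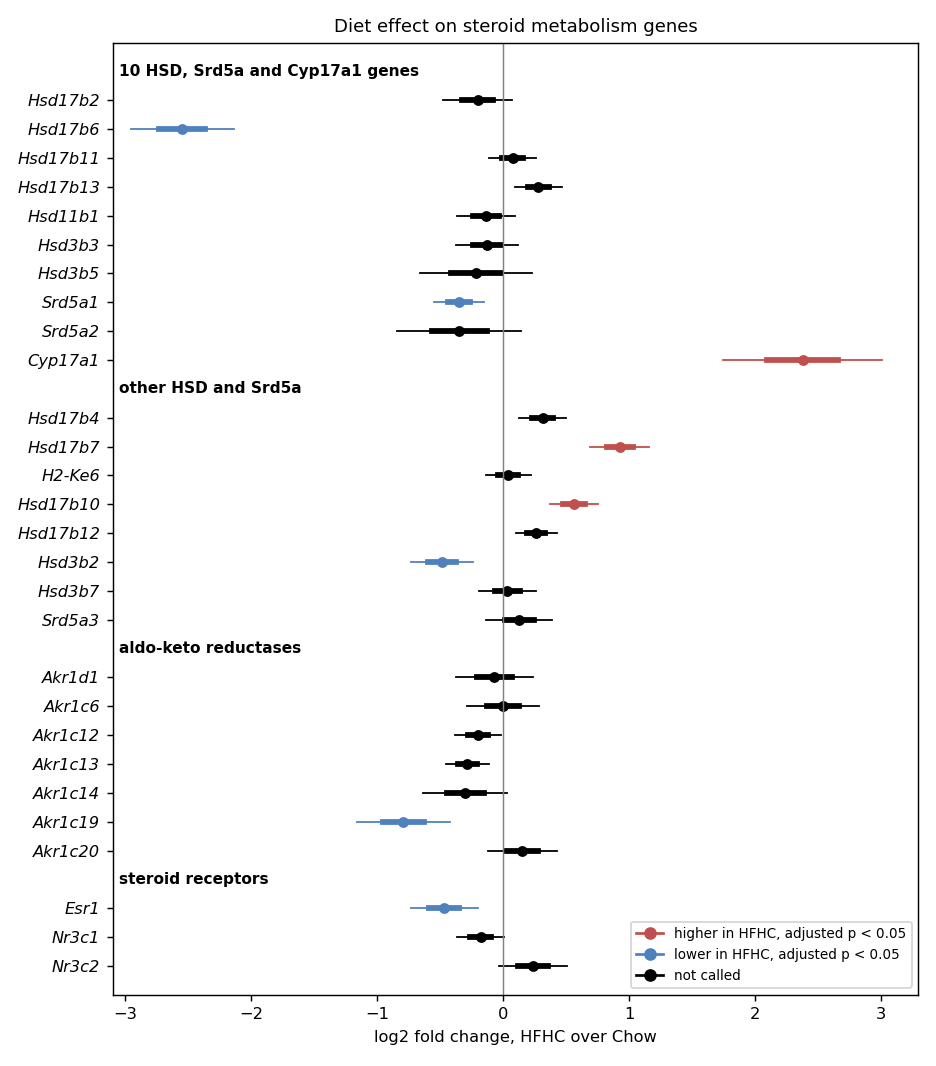
Log2 fold change, HFHC over Chow, of the 10 genes and of tested genes from 3 further lists, as points with the SE (thick line) and the 95% interval (thin line) of the edgeR fit, and calls by colour. Hsd17b6 at -2.55 and Cyp17a1 at 2.38 stand outside the other 8 of the 10 genes, which lie between -0.35 and 0.28.

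Hsd17b6 stood at rank 8 of the 10 genes in HFHC and at rank 2 in Chow when levels were set per kilobase of all exons. On that scale its level was 22.9 ± 1.66 in HFHC and 134 ± 37.1 in Chow. Per kilobase of the longest transcript it was 23.7 ± 1.72 in HFHC (rank 8) and 139 ± 38.4 in Chow (rank 3), and per kilobase of the longest protein-coding transcript its rank was 8 in HFHC and 4 in Chow. Cyp17a1 was at 6.15 ± 2.31 in HFHC and 1.18 ± 0.186 in Chow, and Srd5a2 at 1.09 ± 0.118 in HFHC and 1.38 ± 0.347 in Chow, per kilobase of all exons. These were the lowest levels of the 10 with each of the 3 lengths.

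The order of the higher genes depended on the length used. Per kilobase of all exons, Hsd3b5 was highest, at 195 ± 56.8 in HFHC and 225 ± 32.9 in Chow, ahead of Hsd17b13 in HFHC (121 ± 5.64 in HFHC and 100.0 ± 7.30 in Chow). Hsd11b1 stood at 85.1 ± 8.26 in HFHC and 93.5 ± 8.98 in Chow on that scale. Per kilobase of the longest transcript, Hsd11b1, at 183 ± 17.8 in HFHC and 201 ± 19.3 in Chow, was above Hsd17b13, at 153 ± 7.13 in HFHC and 126 ± 9.22 in Chow. Per kilobase of the longest protein-coding transcript, a setting chosen after seeing the data, Hsd11b1 was highest, at 223 ± 21.6 in HFHC and 245 ± 23.5 in Chow.

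Hsd3b3 moved most with this choice, since its exons together span far more than its coding transcript. It was at 43.9 ± 6.44 CPM per kilobase of all exons in HFHC and 47.97 ± 2.20 in Chow, and at 183 ± 26.9 per kilobase of the protein-coding transcript in HFHC and 200.1 ± 9.18 in Chow. Per kilobase of all exons in HFHC, Hsd17b2 was at 59.9, Hsd17b11 at 48.4 and Srd5a1 at 30.5. On that scale neighbours in the order overlapped for Hsd17b11 and Hsd3b3 in HFHC. In Chow they overlapped for Hsd17b6 and Hsd17b13, Hsd17b13 and Hsd11b1, Hsd3b3 and Hsd17b11, and Srd5a2 and Cyp17a1.

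**Figure D3:**
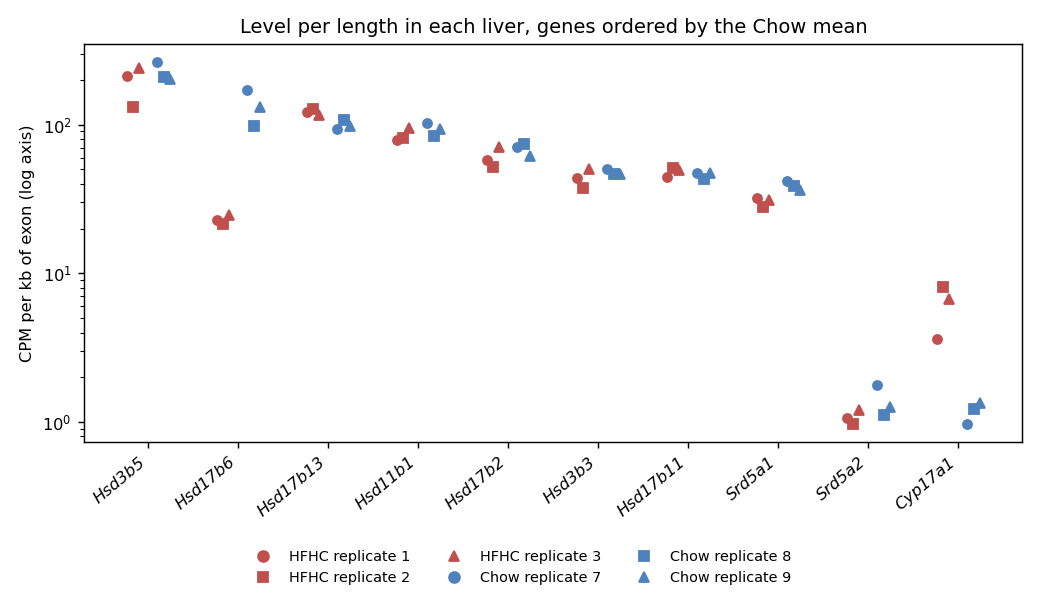
CPM per kilobase of all exons of each gene on a log axis, ordered by the Chow mean, with HFHC points left of Chow points and 1 point per library. Hsd17b6 is at 22.9 in HFHC and 134 in Chow, and Cyp17a1 at 6.15 in HFHC and 1.18 in Chow.

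Other genes of these families were called in both directions. Of 17 on a list of HSD genes with Srd5a3, 11 were in the table and 8 were tested, of which 2 rose and 1 fell (median log2 fold change 0.20). Over all tested genes, 3.38% rose and 3.3% fell, and these shares stand beside the edgeR counts of every list below. Hsd17b7, which also takes part in cholesterol synthesis, stood at 196 ± 19.2 CPM in HFHC livers against 103 ± 11.2 CPM in Chow livers (0.93 ± 0.11 SE on the log2 scale, edgeR adjusted p = 0.00155). Hsd17b10, a mitochondrial dehydrogenase, stood at 172 ± 15.4 CPM in HFHC livers against 116 ± 2.09 CPM in Chow livers (0.57 ± 0.09 SE, edgeR adjusted p = 0.00627).

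Hsd3b2, the close copy of Hsd3b3, stood at 60.2, 57.4 and 72.2 CPM in HFHC livers and at 98.7, 84.3 and 82.6 CPM in Chow. Its log2 fold change was -0.48 ± 0.11 (SE; edgeR adjusted p = 0.0315), and the call was lost without HFHC 1, HFHC 2, Chow 7 or Chow 9 (adjusted p up to 0.124). Hsd17b4 and Hsd17b12, named after their values were seen, act on fatty acids as well as steroids. Neither passed in the reported edgeR fit, at log2 fold changes of 0.32 ± 0.08 (adjusted p = 0.0542) and 0.26 ± 0.07 (adjusted p = 0.0634). For both, every HFHC library was above every Chow library. Both passed with upper-quartile factors, library totals, DESeq2, and limma-voom with sample weights. Hsd17b4 also passed with a filter of 1 CPM in 3 libraries and with limma-voom. Neither passed on leaving out any library (edgeR adjusted p 0.0577 to 0.165 for Hsd17b4, 0.0988 to 0.214 for Hsd17b12).

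Aldo-keto reductases that act on steroids were mostly not called. Of 9 genes, 7 were tested and 1 fell, Akr1c19, at 45.1 ± 5.02 CPM in HFHC livers against 78.1 ± 19.1 CPM in Chow livers (log2 fold change -0.79 ± 0.16 SE, edgeR adjusted p = 0.0231). That call was lost without HFHC 1, HFHC 3 or Chow 9 (adjusted p up to 0.0851). Akr1d1, the liver's 5-beta reductase, stood at 176 ± 22.4 CPM in HFHC livers against 185 ± 32.7 CPM in Chow livers (edgeR adjusted p = 0.819).

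Of 5 genes for the electron and cofactor supply of these enzymes, edgeR called 0, with 1 higher and 1 lower at an unadjusted p under 0.05, DESeq2 called 0 and weighted limma-voom called 1. G6pdx, which makes NADPH in the cytosol, had a log2 fold change of 0.66 ± 0.20 (SE; edgeR adjusted p = 0.0816). Por, which passes electrons to microsomal P450 enzymes, stood at 113 ± 25.3 CPM in HFHC livers against 149 ± 24.6 CPM in Chow livers (edgeR adjusted p = 0.206). Of 12 sulfation genes, 10 were in the table, 4 of them at 0 in all libraries, and 5 were tested. EdgeR called 0 of the 5, with 0 higher and 1 lower (Papss2) at an unadjusted p under 0.05, and DESeq2 and limma-voom called 0.

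Among steroid receptors, 5 of 7 were in the table and 4 were tested. Esr1, the estrogen receptor of hepatocytes, stood at 14.1 ± 1.21 CPM in HFHC livers against 19.5 ± 2.68 CPM in Chow livers (log2 fold change -0.47 ± 0.12 SE, edgeR adjusted p = 0.04996). It lay at the threshold, and its call was lost on leaving out any 1 of the 6 libraries (adjusted p 0.0522 to 0.170). Nr3c1, the glucocorticoid receptor, stood at 119 ± 5.64 CPM in HFHC livers against 135 ± 10.2 CPM in Chow livers (edgeR adjusted p = 0.250).

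Of 4 transport genes, 3 were tested and 1 rose, Pgrmc2, a membrane protein that binds heme, with a log2 fold change of 0.64 ± 0.13 (SE; edgeR adjusted p = 0.0228). That call was lost without HFHC 1, HFHC 2 or Chow 7 (adjusted p up to 0.0945). Of 16 glucocorticoid receptor target genes, all tested, 1 fell with edgeR and 0 rose (2 higher and 5 lower at an unadjusted p under 0.05; 1 higher and 3 lower with DESeq2). The gene that fell was Tat, tyrosine aminotransferase, at 812 ± 32.9 CPM in HFHC livers against 1625 ± 406 CPM in Chow livers (log2 fold change -1.002 ± 0.15 SE, edgeR adjusted p = 0.00673). The 1 call among 16 stands beside 6.67% of all tested genes called in either direction. The median log2 fold change of the 16 was -0.26. Lcn2 (0.75 ± 0.26 SE) and Cdkn1a (0.67 ± 0.23 SE) had positive log2 fold changes and were not called with edgeR. The count of called genes was 2 without HFHC 2 or Chow 9 and 4 without Chow 8.

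Cyp17a1 and Hsd3b5 also stand on lists of genes that differ between the sexes in mouse liver, Cyp17a1 as female-biased and Hsd3b5 as male-biased. All animals here were males. Of 23 female-biased genes, 10 were tested, and 3 rose and 0 fell with edgeR. Over all tested genes, 3.38% rose and 3.3% fell. At an unadjusted p under 0.05, 4 of the 10 were higher and 0 lower, and DESeq2 called 3 higher and 0 lower. The genes that rose were Cyp17a1, Cyp2b9 and Abcd2. Cyp17a1 is the gene reported above, so its value is counted again here. Cyp2b9 had 309 counts in all HFHC libraries and 30 in all Chow libraries. Genes of this list left untested for low counts went either way. Hao2 had 16 counts in HFHC and 3 in Chow, and Cyp3a44 had 2 in HFHC and 16 in Chow. Cyp2c69 (-1.20 ± 0.54 SE), Cyp2c40 (-0.86 ± 0.51 SE) and Fmo2 (-0.34 ± 0.22 SE) had negative log2 fold changes and were not called. The median log2 fold change of the 10 was 0.23, and without HFHC 3 the calls were 3 higher and 2 lower. Cyp2b9, a P450 gene, stood at 1.94, 5.32 and 2.75 CPM in HFHC livers and at 0.228, 0.399 and 0.490 CPM in Chow. Abcd2, a peroxisomal transporter of fatty acids, stood at 12.9, 28.4 and 23.2 CPM in HFHC livers and at 6.87, 6.57 and 8.41 CPM in Chow. HFHC 2 was the highest library for Cyp17a1, Cyp2b9 and Abcd2.

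Of 20 male-biased genes, all tested, 1 rose and 4 fell with edgeR (median log2 fold change -0.35). Over all tested genes, 3.38% rose and 3.3% fell. At an unadjusted p under 0.05, 1 of the 20 was higher and 10 were lower, and DESeq2 called 1 higher and 6 lower. Without Chow 7 there were 2 edgeR calls, both lower. Gstp1, a glutathione transferase, stood at 366 ± 73.8 CPM in HFHC livers against 1397 ± 50.7 CPM in Chow livers (log2 fold change -1.93 ± 0.14 SE, edgeR adjusted p = 0.000147). Serpina1e, a secreted protease inhibitor, stood at 2413, 1070 and 2987 CPM in HFHC livers and at 9976, 8478 and 9635 CPM in Chow (-2.12 ± 0.31 SE, edgeR adjusted p = 0.00517). HFHC 2 was the lowest library for Serpina1e as it was for Hsd3b5. Cspg5 (-1.20 ± 0.22 SE) and C6 (-0.49 ± 0.12 SE) also fell, and Cyp2u1 rose (0.42 ± 0.08 SE). The C6 call was lost on leaving out any 1 of the 6 libraries, with upper-quartile factors and with library totals. That of Cspg5 was lost without Chow 7, and that of Cyp2u1 without Chow 7 or Chow 9.

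Some markers of position within the liver lobule were called as well. Of 10 periportal markers, 1 rose and 5 fell, with a summed level of 6872 to 8254 CPM in HFHC libraries against 8326 to 9686 CPM in Chow libraries. Hal, histidine ammonia-lyase, stood at 242 ± 24.6 CPM in HFHC livers against 506 ± 34.3 CPM in Chow livers. Of 10 pericentral markers, 0 rose and 1 fell with edgeR, Cyp1a2 (1 higher and 2 lower at an unadjusted p under 0.05; 0 higher and 2 lower with DESeq2; call lost with upper-quartile factors and without HFHC 1, HFHC 2, HFHC 3, Chow 7 or Chow 9, adjusted p up to 0.130). Their sum was 8643 to 9605 CPM in HFHC livers and 8837 to 9664 CPM in Chow. The part of lobule position in the values of the 10 steroid genes was not tested. Of 33 tested markers in 6 lists of other liver and blood cells, edgeR called 0, with 4 higher and 1 lower at an unadjusted p under 0.05, and DESeq2 and limma-voom with and without sample weights also called 0. The 4 higher ones were all among the 10 Kupffer cell markers, whose median log2 fold change was 0.20. The summed level of these 10 was 336 to 410 CPM in HFHC livers and 286 to 334 CPM in Chow, which did not overlap.

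The genes most like the 3 called ones over the 6 libraries were taken by Pearson's r of log2 levels among 9156 genes of at least 5 CPM on average. The 6 points fall into the 2 diets, so these values describe the libraries and carry no test. For Hsd17b6 they were Dnaja4 (r = 0.997), Ubn2 (r = 0.996) and Cyld (r = 0.994). For Srd5a1 they were Hnrnpa2b1 (r = 0.995), Cadm4 (r = 0.992) and Ocrl (r = 0.991). For Cyp17a1 they were Derl1 (r = 0.997), Hsd17b12 (r = 0.997) and Copz2 (r = 0.994). The change of these genes was smaller than that of Hsd17b6 and Cyp17a1, with Dnaja4 at a log2 fold change of -0.54 and Derl1 at 0.21. Beside Srd5a1, at -0.35, Cadm4 (-0.79) and Ocrl (-0.52) changed more and Hnrnpa2b1 (-0.19) changed less. Cyld, Hnrnpa2b1, Derl1, Hsd17b12 and Copz2 were not called with edgeR.

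**Figure D4:**
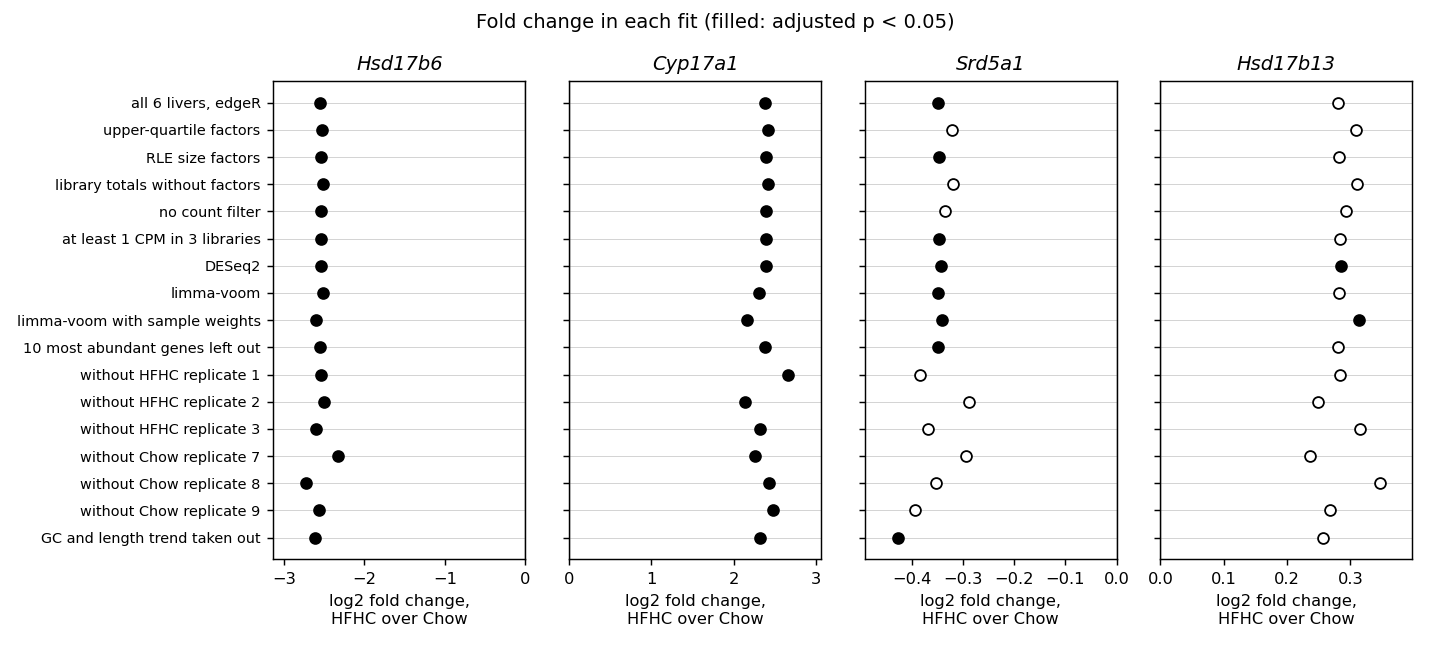
Log2 fold change, HFHC over Chow, of the 4 genes whose libraries did not overlap, in the reported fit (top row) and in each of 16 alternatives, with filled points at an adjusted p under 0.05. Hsd17b6 and Cyp17a1 are filled throughout, Srd5a1 is open in 9 alternatives, and Hsd17b13 is filled in 2.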

How the data were processed

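RNA came from whole liver, and libraries were made after ribosomal RNA depletion with a stranded kit, per the labels' protocols. Per the submitters' processing notes, the reads were handled with STAR 2.7.3a, Partek 9 and the mm10 build; how genes were counted (settings, strand, annotation) was not given in the sources used here. In their table, the authors deposited estimated counts (expected counts) per gene, not normalized, of which 22.4% were not whole (tolerance 0.01). Of the 10 genes, values were whole in every library for Hsd17b2 and Cyp17a1 only.

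Counts were rounded and filtered with filterByExpr (minimum count 10), and edgeR 4.0.16 was run with TMM factors (0.9705 to 1.0216) and its quasi-likelihood F test on all 6 libraries, adjusted by Benjamini-Hochberg. SE is the log2 fold change divided by the square root of F. A p-value here reflects the spread among separate mice of this study, and the litter of each mouse was not given. The fit was also run on counts simulated from its own means, library sizes and dispersion, which checks the code and not the spread among these livers. 1 read stood for 0.0318 to 0.0379 CPM, which limits precision by counting error only.

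The 10 genes and the lists were chosen with earlier results of these data known. Named genes were all 10, called members of the lists or, failing any, the one of smallest p, besides genes said to be chosen later and H6pd, Por, Akr1d1 and Nr3c1, chosen for their role. Of the steroid receptor list, 1 gene is not reported here. Lengths and coordinates are from GENCODE M21, as the ends in the deposited table were 1 base past it in 19522 genes. BLAST 2.17.0 compared transcripts, and sequences are RefSeq's, on GRCm38.p6. Alternatives used DESeq2 1.42.0, limma-voom 3.58.1, other size factors and filters, the 10 most abundant genes left out, and each library left out.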

Additional observations from a re-analysis of the deposited data

How the results depend on the processing

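Hsd17b6, Cyp17a1, Hsd17b2, Hsd17b11, Hsd11b1 and Srd5a2 kept their direction and their side of the threshold under all 16 alternative fits. Srd5a1 missed the threshold with upper-quartile factors (log2 fold change -0.32), library totals (-0.32), no count filter (-0.34) and each library left out (-0.39 to -0.29). Hsd17b13 passed it with DESeq2 (0.29) and weighted limma-voom (0.31). Hsd3b3 turned to 0.033 once the trends on GC and length were removed, and Hsd3b5 ranged from -0.40 to 0.0073 over left-out libraries. The causes were not tested.

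Over left-out libraries, the log2 ratio difference of Hsd3b5 over Hsd3b3 ranged from -0.19 to 0.039, that of Srd5a2 over Srd5a1 from -0.11 to 0.16, and that of the HSD3B sum from -0.18 to 0.025. Per kilobase of the longest transcript, HFHC levels were 87.3 for Hsd17b2, 70.7 for Hsd17b11, 153 for Hsd17b13, 183 for Hsd11b1, 58.9 for Hsd3b3 and 33.6 for Srd5a1. With the longest protein-coding transcript they were 223 for Hsd11b1 and 183 for Hsd3b3, and as before for the other 4. Over all genes, 166 were higher and 116 lower at an adjusted p under 0.01, weighted limma-voom called 704 higher and 790 lower, and left-out libraries gave 207 to 527 higher and 154 to 553 lower.

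Calls among the other HSD genes were 5 with upper-quartile factors, library totals, DESeq2 and weighted limma-voom. Weighted limma-voom called 2 aldo-keto reductases, 1 electron supply gene, 2 transport genes (1 higher, 1 lower), 4 glucocorticoid targets (all lower) and 5 female-biased genes (3 higher, 2 lower). Aldo-keto calls were 2 once trends on GC and length were removed, and glucocorticoid target calls were 4 with DESeq2. Receptor calls were 0 with upper-quartile, RLE or no factors, no filter, a filter of 1 CPM in 3 libraries, limma-voom, the 10 most abundant genes left out, trends on GC and length removed and each library left out. Left-out libraries gave 0 to 1 aldo-keto, 0 to 1 transport, 1 to 4 glucocorticoid target, 2 to 6 male-biased and 3 to 5 female-biased calls.

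No paired analysis was possible because the replicate numbers of the diets, 1 to 3 and 7 to 9, are not shared. With 3 animals a diet, a miss of the threshold does not show that levels were alike.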
